A study of Homo sapiens with 24 samples.

Results

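The long non-coding RNAs of the human HOX clusters were examined in HEK293 cells, a human embryonic kidney line, by small RNA sequencing and by ATAC-seq, which counts transposase insertions in open chromatin. They were chosen by name: every interval of the deposited feature list that is typed as lncRNA and carries one of 10 names, namely HOTAIRM1, HOXA-AS2, HOXA-AS3, HOXA10-AS, HOXA11-AS and HOTTIP in HOXA, HOXB-AS3 in HOXB, HOTAIR and HOXC-AS1 in HOXC, and HOXD-AS2 in HOXD. These names held 95 of the 175946 intervals measured, with 58 in HOXA, 15 in HOXB, 13 in HOXC and 9 in HOXD. Intervals of 1 name overlap and share reads, so they are not independent, and for each name the interval with the highest mean small RNA count is given in full.

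Wild type cells overexpressed eGFP (the control, here GFP), lamin A (LMNA), lamin B1 (LMNB1) or lamin B2 (LMNB2), the filament proteins of the nuclear lamina. Each assay had 3 libraries in each of the 4 groups, 12 in all, and the assays came from separate collections of cells, which the labels number as batches 1 and 2. The labels do not say whether the 3 libraries of a group came from separate cultures, so the p-values measure the spread between these libraries, which may be technical. The vector, the promoter that drives each protein and the time of collection are not given in the sources used here, and no row of the feature tables carries the name LMNA, LMNB1 or LMNB2, so the overexpression itself was not checked.

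The 4 HOX clusters hold the homeobox genes that set position along the body axis in the embryo, and their expression state differs between tissues by position of origin. Non-coding transcripts run between and across these genes, mostly on the opposite strand. HOTTIP lies at the 5′ tip of HOXA and is known for bringing the WDR5 and MLL histone methyltransferase complex to the neighbouring HOXA genes, HOTAIR is transcribed from HOXC and is known for its link to Polycomb silencing of HOXD, and HOTAIRM1 is known as a retinoic acid-induced RNA of myeloid cells. MicroRNAs of the miR-10 and miR-196 families are encoded in the same clusters.

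Small RNA depth ranged from 132507051 to 195074742 counts per library and ATAC depth over the feature windows from 156043245 to 290158229 counts, of which 39.9% to 47.5% were mitochondrial with GFP, 39.4% to 44.1% with LMNA, 32.8% to 34.1% with LMNB1 and 24.5% to 30.7% with LMNB2. MicroRNAs that mark other cell types were nearly absent: MIR122 (hepatocyte) averaged 3.25 counts, MIR142 (blood cells) 2 counts, and MIR223, MIR1-1, MIR124-1, MIR124-3, MIR143, MIR145 and MIR205 under 1 count each. GFP replicate 3 stood apart in the small RNA assay, with 0.294% of its counts in microRNA features against 0.0655% to 0.134% in the other 11 libraries, and it was the highest library for 206 of 295 microRNA features with a mean of at least 10 counts. Small RNA fold changes of the microRNA-holding genes against GFP are given with and without it.

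Most small RNA reads of these lncRNAs came from 2 microRNAs that lie inside them on the opposite strand. Their mature sequences, from RefSeq on GRCh38.p14, are shown with the seed (bases 2 to 8) in capitals, because the levels of the lncRNAs turned on them. The first is read from chr7:27169528-27169549, minus strand, inside HOXA10-AS. The second is its near-identical relative, made from the MIR196A1 and MIR196A2 genes in HOXB and HOXC. The third is read from chr17:48579904-48579926, minus strand, inside the longest HOXB-AS3 interval.
hsa-miR-196b-5p: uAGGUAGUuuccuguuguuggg
hsa-miR-196a-5p: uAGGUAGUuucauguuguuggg
hsa-miR-10a-5p: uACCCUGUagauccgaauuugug
The miR-196 sequences share the seed AGGUAGU and differ by 1 substitution, A12C, with positions counted from 1 at the 5′ end of hsa-miR-196a-5p. The seed of hsa-miR-10a-5p, ACCCUGU, differs from theirs. The mature sequence hsa-miR-10b-5p was not in the RefSeq set used, so its seed was not compared. How reads that match more than 1 locus were counted is not given in the sources used here.

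HOXA10-AS (GRCh38 chr7:27168874-27171940, plus strand, 43.6% of it inside HOXA10) had 701, 1465 and 6023 small RNA counts in the GFP libraries. It had 1502, 1664 and 1181 counts with LMNA, 2034, 2120 and 2401 with LMNB1, and 1141, 1199 and 1090 with LMNB2. The GFP libraries spanned all the others, and GFP replicate 3 was the highest of the 12. The MIR196B interval inside it held between 97.72% and 99.44% of these counts, which left 13 to 34 counts (median 25.5) in the rest of HOXA10-AS. That interval does not span all of hsa-miR-196b-3p, the second mature sequence of MIR196B, so reads of it may be among those left. Each of the 3 HOXA10-AS intervals holds MIR196B, with mean counts of 1872 to 1877.

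HOXB-AS3, named for its position antisense to the HOXB genes and known to encode a short peptide, showed the same pattern in its longest interval (chr17:48549605-48602357, plus strand, 94.3% inside the spans of HOXB3, HOXB4, HOXB5 and HOXB6). It had 3935, 8278 and 38717 counts with GFP, 10665, 14171 and 9478 with LMNA, 12574, 10177 and 12404 with LMNB1, and 7410, 6952 and 5340 with LMNB2. The MIR10A interval held between 98.24% and 99.74% of them, which left 66 to 121 counts (median 94.5). It likewise does not span all of hsa-miR-10a-3p, the second mature sequence of MIR10A. The other 14 HOXB-AS3 intervals hold no microRNA, and their mean counts were between 7.67 and 30.5. Since microRNAs on the minus strand were counted in intervals on the plus strand, the tables do not separate sense from antisense reads, and reads of an lncRNA cannot be told apart from those of a HOX gene on the other strand of the same stretch.

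**Figure D1:**
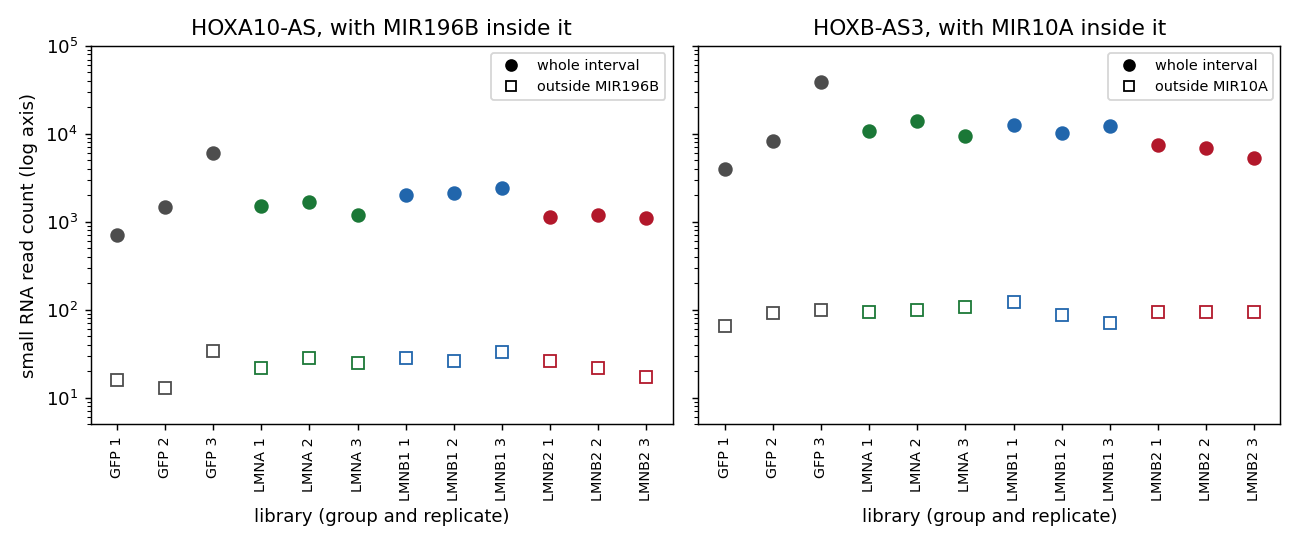
Small RNA read count (log axis) of HOXA10-AS and of the longest HOXB-AS3 interval in each of the 12 libraries, as the whole interval (filled circles) and outside the microRNA (open squares). Whole-interval counts reached 6023 and 38717 in GFP replicate 3, while the counts outside the microRNA stayed between 13 and 34 and between 66 and 121.

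The remaining members had few small RNA reads. HOTAIRM1 (chr7:27096069-27100283, plus strand, 0% of it in a HOX gene) had 12, 4 and 21 counts with GFP, 20, 11 and 17 with LMNA, 21, 15 and 16 with LMNB1, and 11, 18 and 20 with LMNB2. HOXA-AS2 (chr7:27107752-27122198, plus strand, 100% inside HOXA3) had 6, 16 and 12 counts with GFP, 19, 5 and 17 with LMNA, 18, 20 and 10 with LMNB1, and 20, 16 and 15 with LMNB2. HOXA-AS3 (chr7:27129952-27152601, plus strand, 99.9% inside HOX gene spans) had 27, 22 and 35 counts with GFP, 41, 30 and 32 with LMNA, 30, 38 and 44 with LMNB1, and 32, 35 and 33 with LMNB2. In each of these 3 genes the 4 groups overlapped.

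HOXA11-AS (chr7:27184482-27189323, plus strand, 15.5% inside HOXA11), an antisense RNA studied in the uterus, had 12, 11 and 7 counts with GFP, 6, 9 and 9 with LMNA, 12, 14 and 14 with LMNB1, and 11, 8 and 3 with LMNB2. HOXD-AS2 (chr2:176121586-176137038, minus strand, 33.7% inside HOXD8 and HOXD9) had 16, 15 and 14 counts with GFP, 20, 21 and 19 with LMNA, 29, 27 and 22 with LMNB1, and 18, 11 and 21 with LMNB2. Its raw counts were above those of GFP in all LMNA and LMNB1 libraries, but after scaling for library size the groups overlapped. HOTTIP, HOTAIR and HOXC-AS1 were close to the lower limit of counting.

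HOTTIP (chr7:27198550-27201261, plus strand, 56.9% inside HOXA13) had 5, 3 and 8 counts with GFP, 4, 2 and 4 with LMNA, 4, 3 and 1 with LMNB1, and 0, 1 and 2 with LMNB2. HOTAIR (chr12:53962284-53974982, minus strand) had 1, 2 and 4 counts with GFP, 6, 1 and 8 with LMNA, 7, 4 and 2 with LMNB1, and 5, 3 and 2 with LMNB2. HOXC-AS1 (chr12:53998998-54000036, minus strand) had 1 to 3 counts in 11 libraries and 0 in LMNB1 replicate 3. None of these 3 genes passed the filter on low counts, and a count of 0 allows up to 3 counts by counting error alone.

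HOTTIP had 16 counts in all with GFP and 3 with LMNB2, and in CPM (read counts scaled to library size) every LMNB2 library (0.0142 at most) was below every GFP library (0.022 at least). The ratio of the summed levels, LMNB2 over GFP, was 0.174 with an exact 95% counting interval from 0.0325 to 0.608, which does not cover the spread between libraries. With LMNA and LMNB1 the totals were 10 and 8 counts and the intervals included 1 (0.229 to 1.32 and 0.159 to 1.06). Tested with no count filter, HOTTIP with LMNB2 had an unadjusted p of 0.00487, where 8.37% of all intervals were under 0.05, and did not pass the test (adjusted p = 0.196, edgeR).

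Set per length, in CPM per kb averaged over the 12 libraries, HOXA10-AS (3.8) and HOXB-AS3 (1.37) were above all others in each library. HOTAIRM1 followed at 0.0234, above HOXA11-AS (0.013) in 11 of 12 libraries. HOXA11-AS, HOXC-AS1 (0.0108) and HOXA-AS3 (0.00942) did not differ beyond their spread, with each above the next in only 6 of 12 libraries. HOXD-AS2 (0.00811), HOTTIP (0.00741) and HOXA-AS2 (0.00639) also interleaved, above the next in 6 or 7 libraries except HOXA-AS2, which was above HOTAIR (0.00183, the lowest) in all 12. All 10 lay above the median lncRNA interval of the table (0.00104 CPM per kb), from percentile 61 for HOTAIR to percentile 99.6 for HOXA10-AS. These intervals were picked for the highest count of each name, which favours high ranks. Other intervals went lower: those of HOTTIP reached down to percentile 35.7 and those of HOTAIR to percentile 50.1.

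Outside their microRNA intervals, HOXA10-AS had 0.05 CPM per kb, still above HOTAIRM1 in 12 of 12 libraries, while HOXB-AS3 had 0.0114 and lay among HOXA11-AS and HOXC-AS1. Both levels may still include reads of the second mature sequence of the microRNA. In CPM, the part of HOXA10-AS outside MIR196B was 0.142 ± 0.0481 with GFP, 0.159 ± 0.0302 with LMNA, 0.173 ± 0.0166 with LMNB1 and 0.139 ± 0.018 with LMNB2 (mean ± SD, n = 3). That of HOXB-AS3 outside MIR10A was 0.602 ± 0.0641, 0.635 ± 0.0463, 0.558 ± 0.161 and 0.612 ± 0.0497 in the same order. These group means differed by less than or about the spread within a group.

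**Figure D2:**
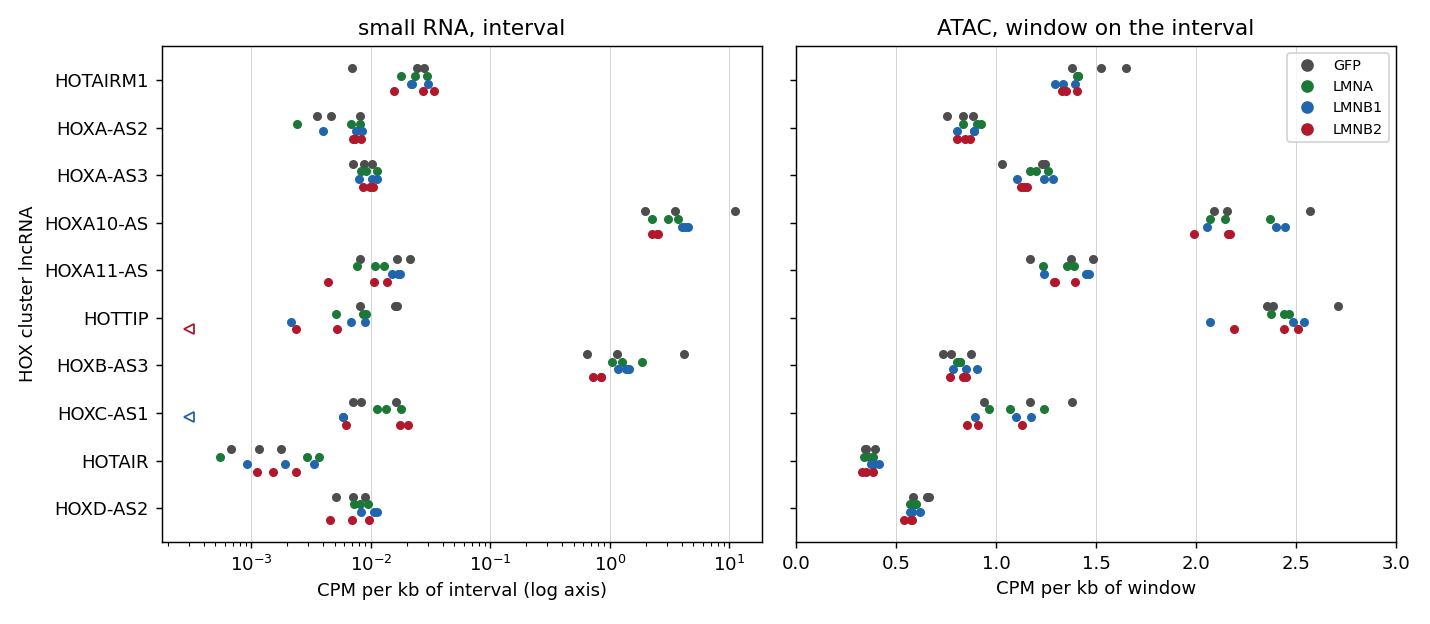
Level of the named interval of each member in CPM per kb, small RNA on the left (log axis) and ATAC on the right (linear axis), with 1 point per library coloured by group and open triangles at the left edge for libraries with a count of 0. The 2 genes that hold a microRNA stand apart in small RNA, at 3.8 and 1.37 on average, and in ATAC the members spread from 0.37 (HOTAIR) to 2.41 (HOTTIP).

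No HOX cluster lncRNA passed the test for a difference between groups in the small RNA assay. Of the 95 intervals, 42 passed the filter on low counts (25 in HOXA, 14 in HOXB, 3 in HOXD and none in HOXC), and 0 of these 42 were called at an adjusted p under 0.05 by edgeR's quasi-likelihood test in any comparison. Over all 33893 intervals tested, the percentage called was 0% for LMNA against GFP, 0.0384% for LMNB1 against GFP and 2.66% for LMNB2 against GFP, and between lamins it was 0.0118% (LMNB1 against LMNA), 2.01% (LMNB2 against LMNA), 2.19% (LMNB2 against LMNB1) and 1.93% (joint test of the 3 lamins). At an unadjusted p under 0.05 the members called were 0, 1 and 4 for the 3 lamins against GFP, where 5.46%, 5.51% and 19.9% of all intervals were, and 0, 1, 0 and 0 between lamins, where 5.74%, 16.4%, 16% and 16% were. DESeq2 also called 0 members in each pairwise comparison. Its joint test of the lamins was fitted without the GFP libraries, unlike that of edgeR. It called 4 members (the 3 HOXA10-AS intervals and the longest HOXB-AS3 interval) and 6.63% of all intervals.

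The lowest values belonged to the 2 microRNA-holding genes with LMNB2. HOXB-AS3 was at a log2 fold change of -1.3 ± 0.545 against GFP (SE, unadjusted p = 0.0369, adjusted p = 0.222, edgeR) and HOXA10-AS at -1.19 ± 0.498 (unadjusted p = 0.0375, adjusted p = 0.223), and neither passed the test. Against GFP, HOXB-AS3 was at -0.51 ± 0.537 with LMNA and -0.57 ± 0.537 with LMNB1, and HOXA10-AS at -0.87 ± 0.495 and -0.37 ± 0.492.

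These values rested on GFP replicate 3. Without it, LMNB2 against GFP was at -0.11 ± 0.243 for HOXB-AS3 (adjusted p = 0.853, edgeR) and -0.13 ± 0.219 for HOXA10-AS (adjusted p = 0.801). The values of the other lamins turned sign: HOXB-AS3 was at 0.7 ± 0.249 with LMNA (unadjusted p = 0.01, adjusted p = 0.202) and 0.63 ± 0.248 with LMNB1 (unadjusted p = 0.0197, adjusted p = 0.354), and HOXA10-AS at 0.21 ± 0.221 (adjusted p = 0.771) and 0.7 ± 0.224 (unadjusted p = 0.0051, adjusted p = 0.195). No member was called against GFP without that library, where 0.842%, 0.0997% and 5.82% of all 36091 intervals were called with LMNA, LMNB1 and LMNB2. With the microRNA counts subtracted and all 12 libraries kept, the LMNB2 values against GFP were 0.02 ± 0.187 for HOXB-AS3 and -0.04 ± 0.269 for HOXA10-AS, with adjusted p-values of 0.964 and 0.952.

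Without GFP replicate 3, LMNB2 was below LMNB1 in both genes: HOXA10-AS at -0.82 ± 0.197 (adjusted p = 0.0155) and HOXB-AS3 at -0.73 ± 0.219 (adjusted p = 0.0497), where 6% of all intervals were called. HOXB-AS3 was then also below LMNA, at -0.81 ± 0.219 (adjusted p = 0.032, with 5.68% called), and 4 members (the 3 HOXA10-AS intervals and the longest HOXB-AS3 interval) passed the joint test of the lamins (6.16% called). That library is not among those compared, and enters these tests through the shared estimate of the spread. Without GFP replicate 1, the 3 HOXA10-AS intervals passed for LMNB2 against GFP, at -1.6 ± 0.378 for the interval given here (adjusted p = 0.0445, with 3.71% called). Each of these calls is on intervals of which over 97% of the counts are microRNA.

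Among the members with no microRNA, log2 fold changes of the named intervals against GFP were between -0.58 and 0.55. HOTAIRM1 was at 0.24 ± 0.398, 0.28 ± 0.392 and 0.32 ± 0.396 with LMNA, LMNB1 and LMNB2. HOXA-AS2 was at 0.11 ± 0.414, 0.28 ± 0.403 and 0.47 ± 0.399. HOXA-AS3, which had the tightest estimates, was at 0.14 ± 0.218, 0.19 ± 0.216 and 0.14 ± 0.219.

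HOXA11-AS was at -0.49 ± 0.422 with LMNA, 0.17 ± 0.384 with LMNB1 and -0.58 ± 0.429 with LMNB2. HOXD-AS2 was at 0.25 ± 0.302, 0.55 ± 0.291 and 0.03 ± 0.31 in the same order. The adjusted p-values of these 5 genes were between 0.478 and 0.993. Without GFP replicate 3, HOTAIRM1 was at 0.71 ± 0.456, 0.75 ± 0.451 and 0.78 ± 0.454 with the 3 lamins, HOXA11-AS with LMNB1 turned to -0.14 ± 0.386 and HOXD-AS2 with LMNB2 to -0.14 ± 0.341, and the adjusted p-values of the 5 genes were between 0.249 and 0.984. Over all 42 members tested the median log2 fold change was 0.09, 0.17 and 0.2 with LMNA, LMNB1 and LMNB2, beside -0.05, -0.05 and -0.04 over all intervals.

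Among the 42 intervals that passed the filter, 6 of HOXB-AS3 had all 3 LMNB2 libraries above all 3 GFP libraries, and 12.1% of all intervals tested had that order. None of the 42 had all LMNB2 libraries below GFP (10.2% of all intervals tested), all LMNA libraries above (4.16%) or below (5.34%) GFP, or all LMNB1 libraries below GFP (5.29%). All 6 overlap within the stretch of the longest of them (chr17:48590395-48602366), and 12 of the 14 HOXB intervals tested had a fold change above 0 with LMNB2. One of the 6, at chr17:48595933-48602366, had 9, 10 and 16 counts with GFP and 21, 15 and 17 with LMNB2, a log2 fold change of 0.49 ± 0.335 (adjusted p = 0.432). A HOXD-AS2 interval (chr2:176127645-176136947) had 7, 10 and 9 counts with GFP and 18, 17 and 18 with LMNB1, at 0.79 ± 0.301 (adjusted p = 0.859), and was the only one of the 42 with LMNB1 entirely above GFP (4.76% of all intervals tested).

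Among the 53 intervals under the filter, some had a lamin entirely below GFP in CPM: 7 with LMNA, 5 with LMNB1 and 5 with LMNB2. Over all 175946 intervals, including those that passed the filter, the shares were 2.88%, 2.8% and 3.92%. All 5 with LMNB2 are HOTTIP intervals, which overlap, and 4 of the 7 with LMNA and 4 of the 5 with LMNB1 are HOTTIP as well. The others are 2 of HOXA-AS2 and 1 of HOXD-AS2 with LMNA, and HOXC-AS1 with LMNB1. In these intervals the GFP libraries held 5 to 16 counts in all and the lamin libraries 0 to 3, so each order rests on a few reads. None of the 53 had LMNA, LMNB1 or LMNB2 entirely above GFP, beside 2.8%, 3.36% and 5.33% of all 175946 intervals.

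**Figure D3:**
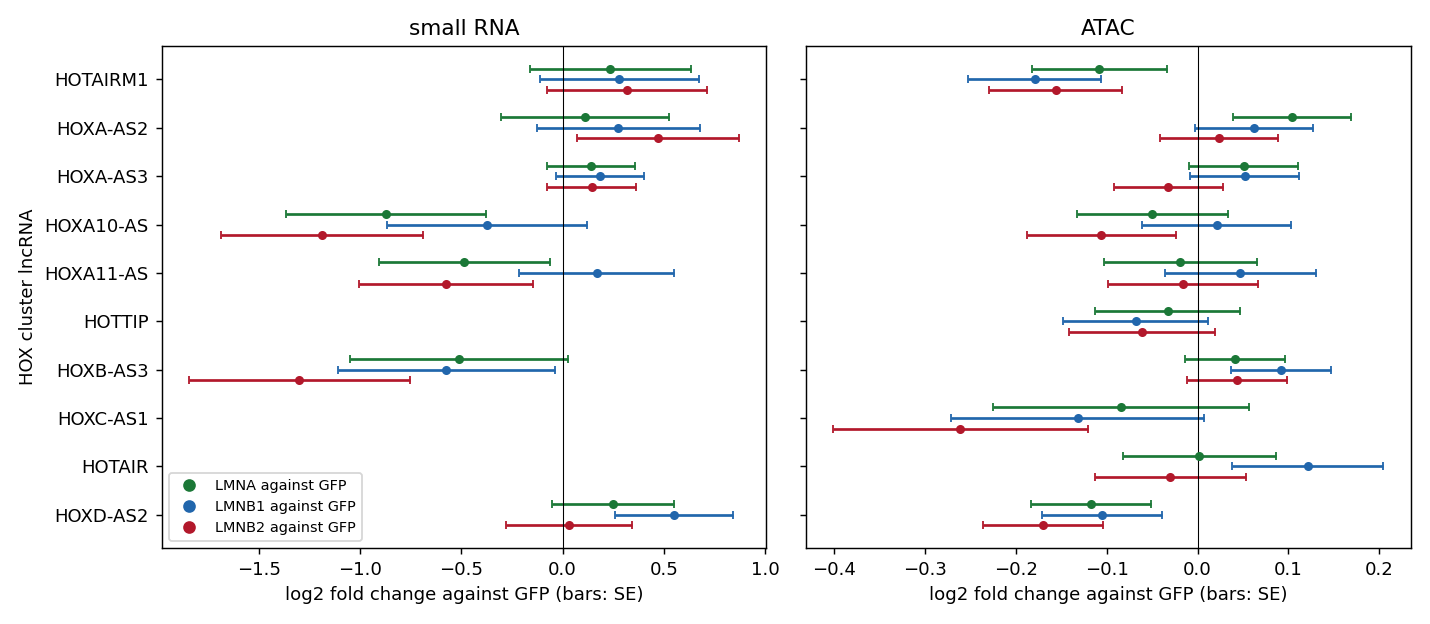
Log2 fold change of the named interval of each member against GFP for LMNA, LMNB1 and LMNB2, in small RNA on the left and ATAC on the right, with bars for the standard error. HOTTIP, HOXC-AS1 and HOTAIR have no small RNA value because they did not pass the filter, and the ATAC values all lie between -0.26 and 0.12.

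The other features of the 4 clusters, a list of 159 that includes 10 microRNA rows and 3 intervals of LINC02381 beyond the last HOXC gene, gave the setting. Of the 78 tested in small RNA, 1 was called with LMNB2, beside 2.66% of all intervals: HSALNG0020587, an lncRNA interval in HOXD (chr2:176105488-176119419, plus strand), had 77, 83 and 88 counts with GFP and 64, 52 and 51 with LMNB2. All LMNB2 libraries were below all GFP libraries, and the log2 fold change was -0.7 ± 0.163 (adjusted p = 0.0343). Leaving out 1 library at a time, it passed in 5 of 12 fits (adjusted p from 0.0104 to 0.162, log2 fold change from -0.77 to -0.63), and did not pass without GFP replicate 1 or 2, LMNA replicate 1, LMNB1 replicate 2 or any LMNB2 library. At an unadjusted p under 0.05, 24 of the 78 (30.8%, beside 19.9% of all intervals) were called with LMNB2, with a median of -0.28, and without GFP replicate 3 the count was 5 of 78 (6.41%, beside 20% of all), with a median of -0.13.

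The values of MIR10A and MIR10B also rested on GFP replicate 3. That of MIR196A2 did so in part, and that of MIR615 did not. MIR10A was at -1.31 ± 0.55 with LMNB2 (adjusted p = 0.222), MIR10B at -1.31 ± 0.568 (adjusted p = 0.237) and MIR196A2 at -1.51 ± 0.509 (adjusted p = 0.147), while MIR615, a HOXC microRNA of another family, was at -0.45 ± 0.367 (adjusted p = 0.53). Without GFP replicate 3 these were -0.11 ± 0.245 for MIR10A, -0.11 ± 0.25 for MIR10B, -0.49 ± 0.224 for MIR196A2 and -0.68 ± 0.381 for MIR615, with adjusted p-values from 0.222 to 0.854 (edgeR).

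The profile of HOXA10-AS across the 12 small RNA libraries followed that of MIR196B inside it (Pearson's r of 1). Among tested features on other chromosomes, the search being limited to these, the 3 most like it hold or are miR-196 genes. As a description, Pearson's r of log2 CPM was 0.987 and 0.985 with 2 intervals of lnc-HOXB8-1 on chromosome 17 and 0.982 with MIR196A1, which lies there too. HOXA10-AS and HOXB-AS3 had an r of 0.93, HOXB-AS3 and MIR10B (chromosome 2) 0.997, and HOXB-AS3 and MIR615 -0.17. Over the 11 libraries without GFP replicate 3 these were 0.963, 0.958, 0.954, 0.81, 0.993 and 0.241 in the same order. The microRNA share differed between these libraries, and its part in these correlations was not tested. Between the other members tested, r was from -0.5 (HOTAIRM1 and HOXA11-AS) to 0.574 (HOTAIRM1 and HOXA-AS3).

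In ATAC all 10 genes were well covered, and they differed widely from each other. HOTTIP had 1271, 1205 and 1351 counts with GFP, 1445, 1283 and 1999 with LMNA, 1927, 2185 and 1559 with LMNB1, and 2025, 1856 and 1859 with LMNB2, and HOXA10-AS had 1220 to 2365 over the 12 libraries. Raw counts follow the depth of each library, so levels were compared as CPM per kb. HOTTIP (2.41) was above HOXA10-AS (2.22) in all 12 libraries, and HOXA10-AS above HOTAIRM1 (1.41) in all 12.

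HOTAIRM1 and HOXA11-AS (1.35) interleaved, with HOTAIRM1 above in 9 of 12. HOXA-AS3 (1.18) and HOXC-AS1 (1.07) came next and interleaved as well, followed by HOXA-AS2 (0.854) and HOXB-AS3 (0.819), whose order held in 9 of 12. HOXD-AS2 (0.595) and HOTAIR (0.37) were lowest, each below its neighbour in all 12. All were above the median lncRNA window (0.0974 CPM per kb), from percentile 81.9 (HOTAIR) to percentile 96.7 (HOTTIP). Among the named intervals that of HOTTIP was thus the most accessible per kb. As 56.9% of it lies inside HOXA13, its level cannot be assigned to HOTTIP alone. HOTTIP was among the 3 with the fewest small RNA counts, but its small RNA level per kb (0.00741) interleaved with those of HOXD-AS2 and HOXA-AS2. The order depends on the interval: those of HOTTIP ran from 0.0847 to 2.45 CPM per kb, those of HOTAIRM1 from 0.0368 to 5.16 and those of HOXA11-AS from 0.3 to 3.17.

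Accessibility was uneven along the genes. For each name, the interval that reaches farthest at the 5′ end was set beside the one that reaches farthest at the 3′ end (the shortest on ties, a rule chosen after seeing the data). The 5′ interval had the higher ATAC level in all 12 libraries for 8 of the 10 names. In HOTAIR, HOXC-AS1, HOXA10-AS and HOXA11-AS, however, the 3′ interval lies mostly or wholly inside the 5′ one, so separate ends are not compared there. The ends are those of the feature list and need not be transcription starts. The RefSeq promoters of HOXA-AS2, HOXA-AS3, HOXA11-AS, HOXB-AS3 and HOTTIP, described below, lie inside their 5′ intervals and not at the outer end. The gap was widest in HOTAIRM1, where an interval of 731 bp at the 5′ end (chr7:27095622-27096352) had 5.16 CPM per kb and one of 697 bp at the 3′ end (chr7:27099594-27100290) had 0.0368.

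For HOTTIP, the interval at chr7:27198550-27201261 had 2.41 CPM per kb and the downstream one at chr7:27202005-27207284 had 0.0847. In HOXD-AS2, transcribed from the minus strand, the interval nearest its start (chr2:176134816-176137123) had 1.3 and one at its 3′ end (chr2:176121586-176122391) had 0.116. The other 2 names went the other way: HOXB-AS3 had 0.819 over its 52753 bp interval and 2.24 at its 3′ end (chr17:48602466-48606439), higher in all 12 libraries, and HOXA-AS3 had 1.18 and 1.22, with the 5′ interval higher in 1 library.

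**Figure D4:**
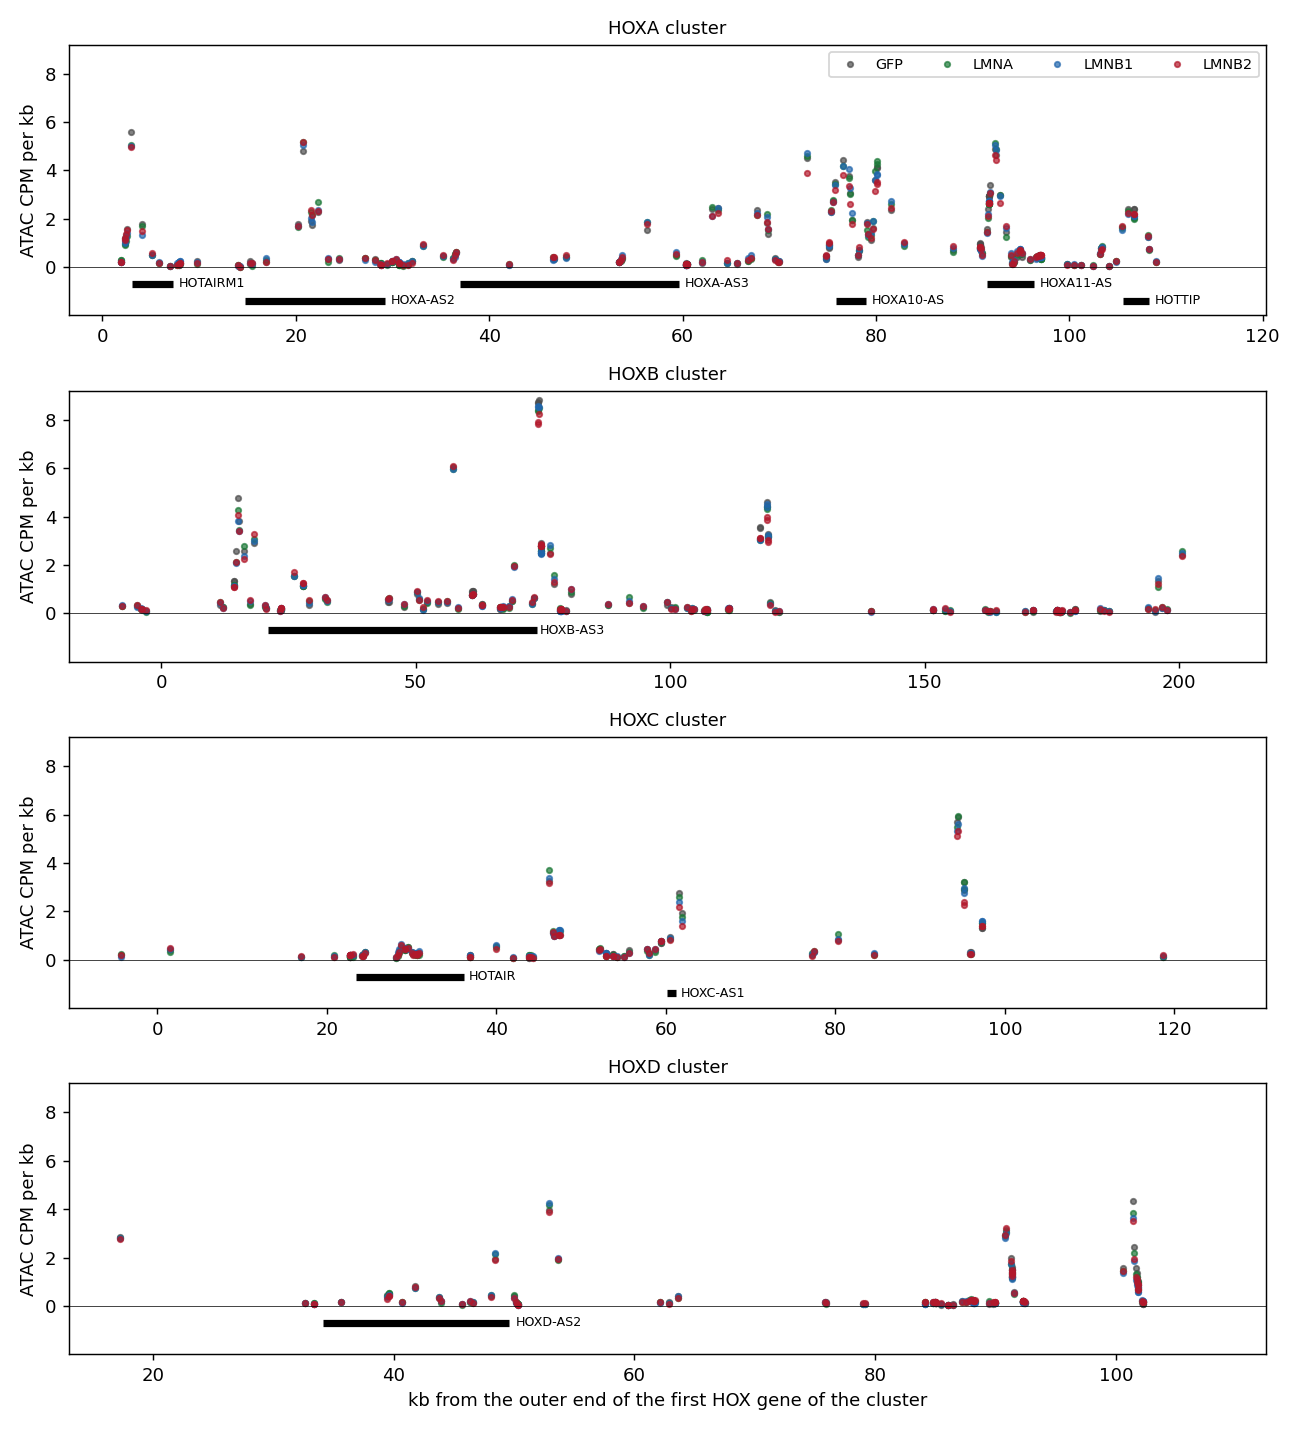
ATAC level (CPM per kb, group means) of every feature window up to 1000 bp long along the 4 HOX clusters, by distance in kb from the outer end of the first HOX gene, with black bars for the named intervals of the members. The windows at the 5′ end of HOTAIRM1 and at the promoter of HOXA11-AS reach 5.16 and 4.92 on average over the groups, and the 4 groups lie close together at each position.

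RefSeq promoter windows (250 bases before to 50 after the start, GRCh38.p14) matched 6 of the 10 names. Feature windows of 500 bp held the whole promoter of HOXA11-AS, HOXA-AS2 and HOXB-AS3, which are compared here at that one length. Their sequences are shown on the sense strand with CG dinucleotides in capitals, because they are the members whose promoter can be read at the same window length.
HOXA11-AS, chr7:27185158-27185457, plus strand: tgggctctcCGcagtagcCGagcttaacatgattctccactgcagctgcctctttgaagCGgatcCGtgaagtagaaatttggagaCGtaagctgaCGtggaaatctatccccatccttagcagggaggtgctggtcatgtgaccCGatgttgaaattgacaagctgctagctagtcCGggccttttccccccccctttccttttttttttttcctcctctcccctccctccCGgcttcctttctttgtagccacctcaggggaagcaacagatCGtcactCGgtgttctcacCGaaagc
HOXA-AS2, chr7:27121669-27121968, plus strand: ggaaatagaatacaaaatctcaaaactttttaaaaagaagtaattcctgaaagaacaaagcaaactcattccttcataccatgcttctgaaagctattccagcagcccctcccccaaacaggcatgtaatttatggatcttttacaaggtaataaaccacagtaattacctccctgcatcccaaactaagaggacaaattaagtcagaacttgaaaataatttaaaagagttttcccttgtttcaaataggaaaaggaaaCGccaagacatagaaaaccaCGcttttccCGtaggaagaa
HOXB-AS3, chr17:48595708-48596007, plus strand: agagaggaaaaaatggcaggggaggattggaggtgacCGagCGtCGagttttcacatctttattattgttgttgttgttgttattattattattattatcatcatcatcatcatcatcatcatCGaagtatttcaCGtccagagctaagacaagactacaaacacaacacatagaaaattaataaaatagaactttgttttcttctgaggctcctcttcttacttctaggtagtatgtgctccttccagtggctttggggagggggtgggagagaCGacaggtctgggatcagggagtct
The HOXA11-AS window had 400 to 795 ATAC counts per library (4.92 CPM per kb) and 12 CG dinucleotides, near the median of 14 over all 35116 RefSeq promoters. The HOXA-AS2 window had 6 to 21 counts (0.114 CPM per kb) and 3 CG, and the HOXB-AS3 window 16 to 50 counts (0.249 CPM per kb) and 6 CG. HOXA11-AS was above both in every library, while the HOXA-AS2 window was close to the median lncRNA window of 0.0974 CPM per kb.

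The promoter of HOTTIP had 41 CG dinucleotides and a GC content of 78%, above 93.3% of all promoters in CG count, and the smallest window that held it (2879 bp) had 2.14 CPM per kb. Motifs were searched on both strands by their exact letters. The CCAAT box was found in 4 of the 6 promoters (HOTTIP, HOXA-AS3, HOXB-AS3 and HOXD-AS2) and in 34.6% of all, the GC box (GGGCGG) 5 times in HOTTIP alone (45% of all), the homeodomain core (TAATTA) once in HOXA-AS2 (4.84% of all) and the PBX-HOX site (TGATNNAT) once in HOXA-AS3 (7.4% of all). The TATA box (TATAAA, 11.5% of all), the direct-repeat retinoic acid response element (0.0057%) and the B box of RNA polymerase III genes (0.185%) were in none of the 6. A match describes these letters only.

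Between groups, ATAC levels of the HOX lncRNAs did not pass the test. All 95 intervals were tested, and 0 were called by edgeR at an adjusted p under 0.05 in any comparison, where over all 163786 windows 0.000611%, 0.00305% and 0.00244% were called for LMNA, LMNB1 and LMNB2 against GFP, and 0.223% (LMNB1 against LMNA), 0.00305% (LMNB2 against LMNA), 0.00305% (LMNB2 against LMNB1) and 0.0916% (joint test) between lamins. At an unadjusted p under 0.05 the counts against GFP were 2, 8 and 16 of 95, beside 5.19%, 4.78% and 5.72% of all windows, and between lamins 10, 1, 6 and 2, beside 5.37%, 7.17%, 4.98% and 6.24%. Members whose 3 lamin libraries were all above GFP numbered 0, 3 and 4 for LMNA, LMNB1 and LMNB2 (4.81%, 4.62% and 5.59% of all windows), and all below GFP 2, 1 and 5 (4.74%, 3.84% and 4.72%). The 8 called at an unadjusted p with LMNB1 are all overlapping HOTAIRM1 intervals. The 16 with LMNB2 are 8 of HOTAIRM1, 5 of HOXD-AS2 and 3 of HOXA11-AS. DESeq2 also called 0 of 95 in each comparison. The mitochondrial share of the ATAC counts was lower in every LMNB1 and LMNB2 library than in any GFP library, and with mitochondrial windows left out 0 of 95 were called and no fold change of a named interval against GFP moved by more than 0.005 on the log2 scale.

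HOTAIRM1 had 6.81, 7.37 and 6.17 CPM with GFP, 6.3, 6.27 and 6.3 with LMNA, 6.22, 5.97 and 5.78 with LMNB1, and 6.27, 6.04 and 5.95 with LMNB2. The lowest GFP library lay within the range of the lamin libraries. Its log2 fold changes were -0.11 ± 0.074, -0.18 ± 0.073 and -0.16 ± 0.073 (adjusted p = 0.981, 0.978 and 0.867).

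HOXD-AS2 had 10.3, 10.5 and 9.21 CPM with GFP, 9.43, 9.24 and 8.99 with LMNA, 9.78, 9.11 and 8.99 with LMNB1, and 9.05, 9.1 and 8.49 with LMNB2. All 3 LMNB2 libraries were below all 3 GFP libraries, as in 4.72% of all windows. The log2 fold change with LMNB2 was -0.17 ± 0.066 (unadjusted p = 0.0151, adjusted p = 0.86).

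The ATAC log2 fold changes of all named genes were between -0.26 and 0.12. HOXC-AS1 with LMNB2 was the farthest, at -0.26 ± 0.14 (adjusted p = 0.887), and it had the fewest ATAC counts of the 10 (219 to 449). HOTTIP was at -0.03 ± 0.08, -0.07 ± 0.08 and -0.06 ± 0.08, and HOTAIR at 0 ± 0.084, 0.12 ± 0.083 and -0.03 ± 0.083. Over all 95 intervals the median was -0.02, 0.05 and -0.04 for the 3 lamins, beside 0 over all windows. The value farthest from 0 was in the 806 bp HOXD-AS2 interval at chr2:176121586-176122391 with LMNA, at -1.26 ± 0.368 (adjusted p = 0.725). It had 22, 24 and 38 counts with GFP and 8, 19 and 16 with LMNA.

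Summed over 1 interval per name, no cluster passed the test between a lamin and GFP in either assay (exact two-sided permutation test of 3 against 3 libraries, whose smallest possible p is 0.1). The HOXD sum in ATAC, which is HOXD-AS2 alone, was 8.88 ± 0.34 CPM with LMNB2 and 10 ± 0.69 with GFP (SD, n = 3, exact p = 0.1, adjusted p = 0.933 over the 12 ATAC comparisons). In small RNA the HOXB sum was 104.2 ± 99.5 CPM with GFP (47.3 ± 19.1 without replicate 3, n = 2) and 42.4 ± 3.84 with LMNB2 (exact permutation p = 0.4 over all libraries, adjusted p = 0.8), and the 3 GFP libraries had 0.0655%, 0.111% and 0.294% of their counts in microRNA features. The HOXC sum was 0.0262 ± 0.0117 CPM with GFP and 0.0365 ± 0.0114 with LMNB2 (exact p = 0.3, adjusted p = 0.8).

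Set against the 5000 bp on either side, 9 of the 10 named intervals were more accessible than their surroundings in all 12 libraries. HOTTIP was 18.1-fold above its flanks, HOTAIRM1 6.68-fold and HOXA-AS2 4.96-fold, followed by HOXA-AS3 (2.5-fold), HOTAIR (1.82-fold), HOXA11-AS (1.75-fold), HOXC-AS1 (1.68-fold), HOXA10-AS (1.35-fold) and HOXD-AS2 (1.21-fold). HOXB-AS3 was below its flanks in all 12, at 0.688 of their level. Of all 95 intervals, 54 were above their flanks and 32 below in all 12 libraries, and the ratio varied within a name: from 0.0967 to 18.1 in HOTTIP, 0.0325 to 18.9 in HOTAIRM1, 0.267 to 4.96 in HOXA-AS2, 0.746 to 2.08 in HOTAIR and 0.537 to 2.33 in HOXB-AS3. In HOXA-AS2, 8 of 11 intervals lay below their flanks in all 12 libraries, while all 7 of HOXA-AS3 lay above. The flanks of members inside a cluster include neighbouring HOX promoters. Windows that overlap a HOX gene, as that of HOTTIP does with HOXA13, also count the accessibility of that gene.

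Between groups, 5 of the 30 lamin against GFP comparisons of this ratio reached the smallest exact permutation p of 0.1, with an adjusted p of 0.6 over the 30. Each comparison reaches that p with a probability of 0.1 where the groups do not differ. The share over all windows is not given for this ratio, so the orders that follow are descriptions only. For HOTAIRM1 the log2 ratio was 2.92 ± 0.174 with GFP, 2.55 ± 0.042 with LMNB1 and 2.72 ± 0.055 with LMNB2 (SD, n = 3), the only gene in which 2 lamins were entirely below GFP. For HOXA-AS3 it was 1.26 ± 0.035 with GFP, 1.41 ± 0.074 with LMNB1 and 1.33 ± 0.012 with LMNB2, entirely above GFP. For HOTTIP with LMNA it was 4.14 ± 0.05 against 4.25 ± 0.055 with GFP.

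**Figure D5:**
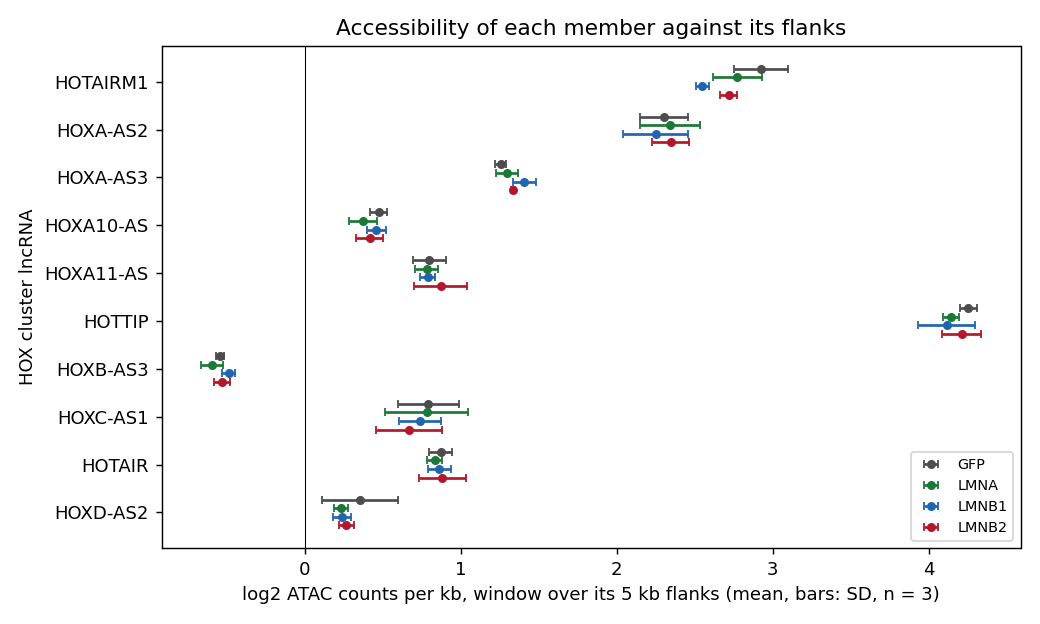
Log2 of ATAC counts per kb in the window of each member over its 5 kb flanks, as the mean of 3 libraries per group with bars for the SD. HOTTIP lies near 4.18 and HOTAIRM1 near 2.74, and HOXB-AS3 at -0.54 is the only named interval below 0.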

How the data were processed

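The deposited tables hold raw read counts per feature and library for small RNA and ATAC, on GRCh38 per the submitters' processing notes. Aligner, counter, strand setting and treatment of multiply mapped reads are not given in the sources used here. Most intervals reach 25 bp beyond RefSeq ends, and ATAC windows 125 bp further on each side. Starts are printed 1-based.

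Counts were filtered (filterByExpr), scaled by TMM and tested by edgeR 4.0.16 quasi-likelihood F-tests (R 4.3.3) on all 12 libraries of an assay, with Benjamini-Hochberg adjustment over all tested features (33893 small RNA, 163786 ATAC) and calls at 0.05. SEs are the log2 fold change over the root of F. CPM uses the TMM library sizes. Single values were tested by exact permutation. Alternatives were DESeq2 1.42.0, other filters and scalings, a replicate block, subsets of libraries, flank widths and, added after seeing the data, subtraction of microRNA counts.

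Every name is reported through its interval of highest mean small RNA count. Of other HOX features, those called are named, with 4 microRNAs of the list, and the 3 features on other chromosomes most correlated with the member of highest level per kb. The 4 microRNAs and the shorter intervals given with positions were picked after their values were seen. Members and lists were chosen with earlier results of these data known. Same-numbered libraries correlated above 0.1 in 2 of 18 pairs in each assay (from -0.041 to 0.234 in small RNA, from -0.076 to 0.195 in ATAC), so replicate numbers were not taken as pairs. On simulated counts for LMNB2 against GFP, with 33893 small RNA features and 163786 ATAC features, a log2 change of 1 was recovered in 12.6% (small RNA) and 69.3% (ATAC) of changed features, and a change of 2 in 83.8% and 89.9%. Changes were placed only in features with a mean of at least 10 counts. Tested members under that mean, such as HOXA11-AS in small RNA (9.67), are not covered by these shares. PCR reads are not independent molecules, so counting limits cover counting error only.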

Additional observations from a re-analysis of the deposited data

How the results depend on the processing

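The count of members called stayed at 0 in ATAC under every alternative run. In small RNA it was 4 for LMNB2 against LMNB1, 4 in the joint test of the lamins and 1 for LMNB2 against LMNA when only the groups compared were fitted (where 15.5%, 12% and 10.5% of all intervals were called), and 4 in the joint test with DESeq2, which was also fitted without GFP. Leaving out 1 library at a time gave 0 to 3 called for LMNB2 against GFP, 0 to 4 for LMNB2 against LMNB1, 0 to 4 in the joint test and 0 to 1 for LMNB2 against LMNA. The values above 0 came without GFP replicate 1 (3 called, LMNB2 against GFP) and without GFP replicate 3 (the others), and all are HOXA10-AS or the longest HOXB-AS3 interval. With the replicate number as a block, 0 members were called in each comparison of both assays. The ATAC cluster sums, when scaled by total counts only, differed from GFP on the log2 scale by 0.214 (LMNB1) and 0.074 (LMNB2) for HOXA, 0.285 and 0.158 for HOXB, 0.257 and 0.032 for HOXC, and -0.026 (LMNA), 0.088 (LMNB1) and -0.057 (LMNB2) for HOXD. With 500 bp flanks the median difference in window over flank for LMNA was 0.17. The cause of these shifts was not tested. No called value changed direction. Of 436 recomputed small RNA fold changes of named members, 415 kept their sign and 21 did not, and of 600 in ATAC, 555 kept it and 45 did not, all of the latter uncalled. A filter at 10 counts and the depth of the small RNA libraries left HOTTIP, HOTAIR and HOXC-AS1 out of that test, and with no count filter 0 members were called.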
